A study of Mus musculus with 2 samples.

Results

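The genes described here are 9 leukotriene and prostaglandin receptors and enzymes, followed in Th17 cells with and without *Fak*. They were chosen by symbol and not by a rule on their counts, though with earlier results of these data known. All 9 were found, each on a single row, among the 23282 gene rows of the tables. They comprise 6 receptors (*Cysltr1*, *Cysltr2*, *Ltb4r1*, *Ptger2*, *Ptger4* and *Ptgir*) and 3 enzymes or enzyme partners (*Alox5ap*, *Lta4h* and *Ptges3*). *Cysltr1* is among the Th17-related genes that the study names for this RNA-seq, so its choice is not independent of these libraries.

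Naïve CD4 T cells from the spleens of *Fak* fl/fl mice were transduced with the empty control retrovirus (MIEG3) or with RV-Cre, a retrovirus that carries Cre recombinase and a GFP sequence. The cells came from female mice aged 6 to 8 weeks, per the study's methods. Both cultures received anti-CD3ε on the plate at 10 μg/ml and anti-CD28 in solution at 5 μg/ml, and were polarized toward Th17 for 3 days with IL-6 (50 ng/ml), human TGFβ1 (1 ng/ml), TNFα (1 ng/ml), IL-1β (2 ng/ml), anti-IFNγ (5 μg/ml) and anti-IL-4 (5 μg/ml), and GFP+ cells were sorted. There was 1 library per condition, Control Th17 and FakKO Th17, the latter called RV-Cre here. The genotype label of the control reads WT although its title names floxed cells, and the title was followed. Both cultures carried the floxed allele, Cre and the loss of *Fak* came together in 1 culture, and no library with Cre and an intact *Fak* was analysed here, so that effects of Cre and of *Fak* loss cannot be told apart.

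Eicosanoids are lipid signals made from arachidonic acid, which phospholipases release from membranes. In the leukotriene branch, 5-lipoxygenase, helped by the membrane protein FLAP (*Alox5ap*), makes leukotriene A4, which *Lta4h* converts to leukotriene B4 or which is coupled to glutathione to give the cysteinyl leukotrienes. In the prostanoid branch, cyclooxygenases make the precursor of prostaglandin E2, prostacyclin and their relatives. T cells sense these lipids through G protein-coupled receptors. Prostaglandin E2 acts on them mainly through EP2 (*Ptger2*) and EP4 (*Ptger4*), which raise cyclic AMP, and it is known to modulate Th17 responses. Leukotriene B4 and the cysteinyl leukotrienes are best known for attracting and activating leukocytes.

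The control library held 13799264 counted reads and the RV-Cre library 12305010. *Ptk2*, the symbol of *Fak*, had 110 control and 31 RV-Cre reads, with a ratio of 0.318 (95% interval 0.206 to 0.477). Reads on the targeted gene were thus lower in the library labelled as deleted, though still present. Whether the remaining reads came from intact or from recombined transcripts was not tested, so the ratio is not a measure of deletion. All 10 pan-T cell markers of the table had reads in both libraries, and their summed level was 2143 CPM in the control and 2970 CPM in the RV-Cre library, with 9 higher and 1 lower in CPM and *Cd3d* and *Cd3e*, chosen after their values were seen, at least 2-fold higher. Of the 12 Th17 genes past the expression minimum, 6 were 2-fold or more below the control, against 12.3% of all genes past it. The ribosomal RNA gene *Rn45s* held 8.50% of control reads and 14.6% of RV-Cre reads.

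Every ratio below is the count in the RV-Cre library over that in the control library after TMM scaling, which corrects for depth and composition. Its interval is the exact Clopper-Pearson 95% interval on the split of the gene's reads, and it covers counting error only. A log2 ratio is the difference of log2(normalized count + 1). A gene was called higher or lower when that log2 ratio was at least 1 in size, a 2-fold difference, and its log2 value was at least 4, or 15 normalized reads, in at least 1 library. As each condition had 1 library, no difference has a replicate check, no test was run and no p-value is given. In the QuantSeq protocol used, a read marks the 3′ end of a transcript, so counts do not grow with length and CPM, a gene's count scaled to its library's total, can be set side by side between genes. In such bulk samples, fewer cells that express a gene and less RNA per cell cannot be told apart.

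Of the 9 genes, 8 passed the minimum. Of these, 3 were lower (*Cysltr1*, *Cysltr2* and *Ptger2*), 0 were higher and 5 were neither. Over all 12112 genes past the minimum, 12.3% were lower and 14.2% were higher (26.5% either), which is the background for these counts. *Cysltr1* and *Cysltr2* passed only through the control library, where they are high, so their call carries a selection, and 6 genes reached the minimum in both libraries, of which 1, *Ptger2*, was lower (background over 10537 genes 10.4% lower, 7.19% higher and 17.6% either). Calls are also common among genes of few reads. With a mean log2 value below 5, 49.9% of genes past the minimum were higher and 20.8% lower, or 70.7% in either direction. With a mean from 5 to 8 the shares were 12.8% higher, 15.6% lower and 28.4% either, and with a mean of 8 or more 3.74%, 7.6% and 11.3%. Intervals that left out a ratio of 1 were found for 6 of the 9 genes. The interval lay wholly beyond 2-fold for 1, *Cysltr2*. The share of all genes that meet either interval criterion was not computed, so these interval counts have no background beside them.

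**Figure D1:**
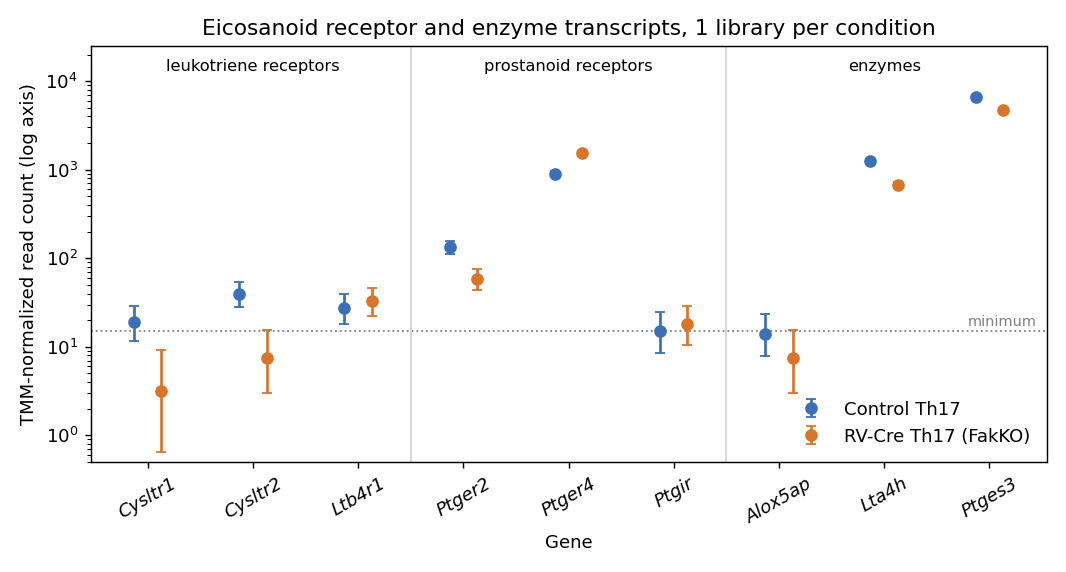
TMM-normalized read counts (log axis) of the 9 genes in the control library (blue) and the RV-Cre library (orange); bars are exact Poisson 95% intervals and the dotted line marks 15 normalized reads. *Ptges3*, *Lta4h* and *Ptger4* lie far above the other 6 genes in both libraries, and *Cysltr1* and *Cysltr2* drop below the line in the RV-Cre library.

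The 9 genes spanned a wide range of levels. *Ptges3* was the most abundant, with 516 CPM in control cells and 366 CPM in RV-Cre cells, whereas the lowest were *Alox5ap* in the control library with 1.09 CPM and *Cysltr1* in the RV-Cre library with 0.244 CPM. In the control library the order was *Ptges3*, *Lta4h*, *Ptger4*, *Ptger2*, *Cysltr2*, *Ltb4r1*, *Cysltr1*, *Ptgir* and *Alox5ap*. The first 4 neighbours in that order, down to *Ptger2* over *Cysltr2*, differed beyond counting error, and the neighbours from *Cysltr2* to *Alox5ap* did not. In the RV-Cre library *Ptger4* stood above *Lta4h*, with 2.31 reads per *Lta4h* read (95% interval 2.10 to 2.54), the reverse of the control library, where *Lta4h* had 1.39 reads per *Ptger4* read (95% interval 1.27 to 1.51). Below *Ptger2* came *Ltb4r1*, *Ptgir*, *Alox5ap* and *Cysltr2* with equal counts, and *Cysltr1*, and neighbours from *Ltb4r1* down did not differ beyond counting error.

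A contrast lay between the 2 prostaglandin E2 receptors that raise cyclic AMP. *Ptger4*, which encodes EP4, had 958 reads in control cells against 1448 in RV-Cre cells, or 69.4 and 118 CPM. Its ratio was 1.71 (95% interval 1.57 to 1.85), higher beyond counting error but short of 2-fold, with a log2 ratio of 0.77. *Ptger2*, which encodes EP2, had 141 and 55 reads, or 10.2 and 4.47 CPM. Its ratio was 0.440 (95% interval 0.316 to 0.605) and its log2 ratio -1.17, past the threshold although the interval reaches ratios above 0.5, and with *Gapdh* scaling the log2 ratio was -0.76, short of 2-fold. The receptors thus stood in opposite directions in the same libraries. Per *Ptger2* read there were 6.79 *Ptger4* reads in control cells against 26.3 in RV-Cre cells, a 3.87-fold difference (exact conditional 95% interval 2.78 to 5.45) that does not depend on how the libraries were scaled.

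*Ptgir*, which encodes the prostacyclin receptor IP, had few reads, 16 in control cells and 17 in RV-Cre cells, or 1.16 and 1.38 CPM. Its ratio of 1.20 has an interval from 0.570 to 2.54, so that no difference was detectable at this depth. Relative to *Ptger2* it was 2.72-fold higher in the RV-Cre library (95% interval 1.20 to 6.19), and relative to *Ptger4* its difference was within counting error, with 59.9 and 85.2 *Ptger4* reads per *Ptgir* read (fold 1.42, 95% interval 0.669 to 3.01). Summed over the 3 prostanoid receptors, 1115 and 1520 reads gave a ratio of 1.54 (95% interval 1.42 to 1.66), of which *Ptger4* made up 85.9% in the control library (95% interval 83.7 to 87.9) and 95.3% in the RV-Cre library (94.1 to 96.3). The share of *Ptger2* was 12.6% (10.8 to 14.7) in the control library and 3.62% (2.74 to 4.68) in the RV-Cre library.

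**Figure D2:**
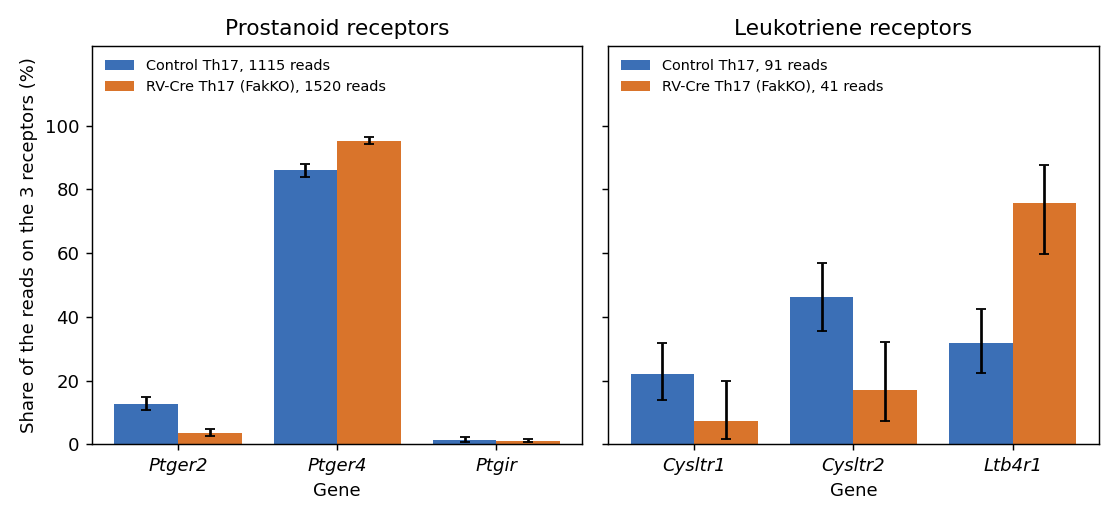
Share of each gene (%) in the reads on the 3 prostanoid receptors (left) and the 3 leukotriene receptors (right), in the control library (blue) and the RV-Cre library (orange), with exact 95% binomial intervals. *Ptger4* takes 85.9% and then 95.3% of the prostanoid receptor reads, and *Ltb4r1* 31.9% and then 75.6% of the leukotriene receptor reads.

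The other 2 receptors of prostaglandin E2 were taken from the wider gene list. *Ptger1* (EP1) counted 196 and 145 reads, and the interval of its ratio of 0.835, from 0.669 to 1.04, includes 1. Its reads are uncertain, since no source says that strand was used in counting. *Ptger3* (EP3) had 6 and 0 reads, and 3 reads, the limit that a count of 0 allows, correspond to 0.244 CPM in the RV-Cre library. Over all 4 receptors of prostaglandin E2 the reads summed to 1301 and 1648, a ratio of 1.43 (95% interval 1.33 to 1.54).

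*Ptger2* lies on chromosome 14 (GRCm38 chr14:44988195-45003820, plus strand) and *Ptger4* on chromosome 15 (chr15:5206661-5244187, minus strand) in GENCODE M21. Both share exonic bases with other annotated genes on the opposite strand, *Ptger2* with *Gm49364* and *Gm17173*, and *Ptger4* with *Ttc33* and the processed pseudogene *Gm15937*, so part of their reads is uncertain. No 50-base window in the last 300 bases of their transcripts occurs in a transcript of another gene. The 250 bases before their RefSeq start sites (GRCm38.p6) are shown because the receptors stood in opposite directions, together with those of *Cysltr2*, the receptor whose interval lay wholly beyond 2-fold. They run 5′ to 3′ on the strand of the gene. Capitals mark matches, on either strand, to the κB-like pattern (GGG, any 5 bases, then CC), the GC box GGGCGG and the CCAAT box CCAAT, and adjoining or overlapping matches form 1 block:
*Ptger2*, chr14:44987861-44988110, plus strand: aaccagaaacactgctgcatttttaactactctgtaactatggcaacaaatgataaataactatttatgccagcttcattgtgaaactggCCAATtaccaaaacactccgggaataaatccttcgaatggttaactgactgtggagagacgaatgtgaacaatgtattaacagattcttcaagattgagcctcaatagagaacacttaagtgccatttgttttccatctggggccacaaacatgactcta
*Ptger4*, chr15:5244188-5244437, minus strand: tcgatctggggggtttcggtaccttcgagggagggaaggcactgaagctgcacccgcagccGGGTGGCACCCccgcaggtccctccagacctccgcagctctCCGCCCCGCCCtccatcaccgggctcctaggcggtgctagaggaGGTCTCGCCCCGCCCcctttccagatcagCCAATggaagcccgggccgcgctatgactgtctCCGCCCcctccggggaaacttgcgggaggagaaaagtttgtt
*Cysltr2*, chr14:73049115-73049364, minus strand: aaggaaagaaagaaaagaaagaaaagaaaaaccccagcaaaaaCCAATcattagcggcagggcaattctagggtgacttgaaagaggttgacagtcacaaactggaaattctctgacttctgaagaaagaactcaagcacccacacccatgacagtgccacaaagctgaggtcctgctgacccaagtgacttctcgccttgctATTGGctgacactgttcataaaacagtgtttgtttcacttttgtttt

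These stretches differ in composition. That of *Ptger4* was 66.8% G or C, with 3 κB-like matches and 4 GC boxes, while those of *Ptger2* at 38.0% and *Cysltr2* at 42.8% had 0 of either, and each of the 3 held at least 1 CCAAT box. The κB-like pattern occurs in 45.8% of the 32851 promoters of the table over the same 250 bases, the GC box in 32.7% and the CCAAT box in 33.8%, and the median promoter was 52.4% G or C. Of the κB-like matches of *Ptger4*, 2 overlap each other on opposite strands and 1 overlaps a GC box. The pattern was also present before *Lta4h*, *Ptgir* and *Ptges3*, and not before *Ltb4r1*. The CRE core TGACG (17.8% of promoters), the STAT pattern TTCNNNGAA (7.02%), the ROR element AGGTCA (14.0%) and the TATA box TATAAA (12.4%) matched in 0 of the 7 promoters found, while *Cysltr1* and *Alox5ap* had no entry. A match is a string of letters and not a known binding site.

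Both receptors for cysteinyl leukotrienes were lower in the RV-Cre library. *Cysltr2*, which encodes CysLT2, had 42 reads in control cells against 7 in RV-Cre cells, or 3.04 and 0.569 CPM. Its ratio was 0.188 (95% interval 0.0713 to 0.423) and its log2 ratio -2.26. *Cysltr1*, which encodes CysLT1, had 1.45 CPM in control cells and 0.244 CPM in RV-Cre cells, from 20 and 3 reads. Its ratio was 0.169 (95% interval 0.0322 to 0.571) and its log2 ratio -2.24. With a pseudocount of 10 in place of 1 the log2 ratios were -1.13 for *Cysltr1* and -1.51 for *Cysltr2*. Added together, the pair had 62 and 10 reads and a ratio of 0.182 (95% interval 0.0832 to 0.358). Both genes passed the minimum only through the control library and the study named *Cysltr1* from these libraries, so the pooled ratio carries a selection. Relative to each other there were 2.10 *Cysltr2* reads per *Cysltr1* read in control cells and 2.33 in RV-Cre cells, and the interval of that fold of 1.11 runs from 0.223 to 7.34 and would hold a large difference.

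*Ltb4r1*, which encodes BLT1, the high-affinity receptor for leukotriene B4, had 29 reads in control cells against 31 in RV-Cre cells, or 2.10 and 2.52 CPM. Its ratio was 1.21 with an interval from 0.703 to 2.07, so no difference was detectable at this depth. Against the cysteinyl leukotriene receptors it stood apart beyond counting error. Per *Cysltr2* read there were 0.690 *Ltb4r1* reads in control cells against 4.43 in RV-Cre cells, a 6.41-fold difference (95% interval 2.32 to 19.3), and the corresponding fold over *Cysltr1* was 7.13 (1.79 to 40.5). *Ltb4r1* thereby went from 31.9% (95% interval 22.5 to 42.5) of the 91 leukotriene receptor reads of the control library to 75.6% (59.7 to 87.6) of the 41 reads of the RV-Cre library, and the reads on the 3 receptors together had a ratio of 0.508 (0.343 to 0.743). These folds and shares rest on *Cysltr1* and *Cysltr2*, which passed the minimum only through the control library, and carry that selection.

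*Cysltr1* lies on the X chromosome (GRCm38 chrX:106574346-106603679, minus strand), and *Cysltr2* (chr14:73025603-73049114, minus strand) and *Ltb4r1* (chr14:55765962-55768494, plus strand) lie on chromosome 14. *Cysltr1* overlaps *Gm5127* on the other strand and the small RNA gene *Gm24622* on its own strand, without shared exonic bases, while *Cysltr2* and *Ltb4r1* overlap no other annotated gene. *Ltb4r2*, which encodes the low-affinity leukotriene B4 receptor, had 0 reads in both libraries.

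**Figure D3:**
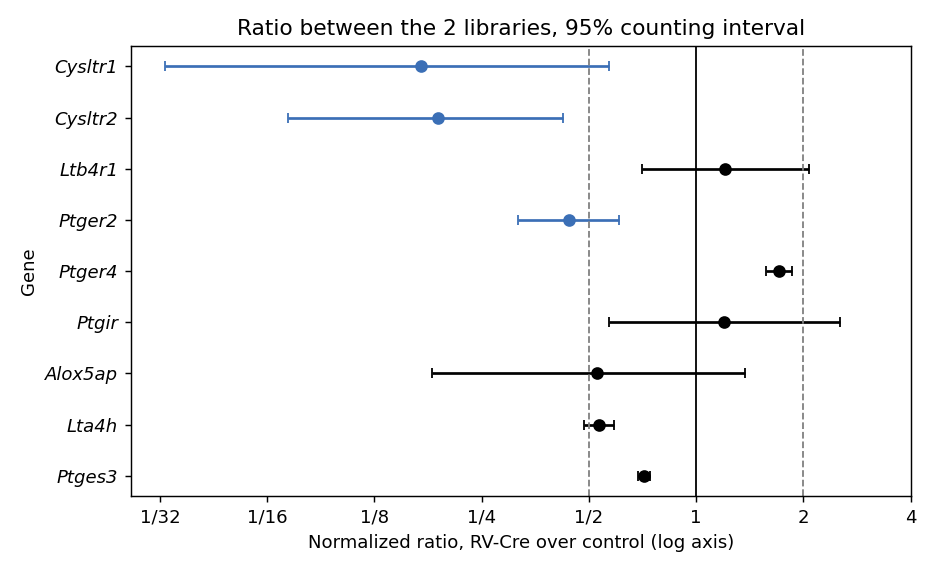
Normalized ratio of the RV-Cre library over the control library (log axis) for the 9 genes, with exact 95% counting intervals; blue marks the 3 genes called lower and dashed lines mark 2-fold. The interval of *Cysltr2* lies wholly below 0.5, that of *Ptger4* wholly between 1 and 2, and those of *Ltb4r1*, *Ptgir* and *Alox5ap* include 1.

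The enzymes were lower or undecided. *Lta4h*, leukotriene A4 hydrolase, which makes leukotriene B4 and also acts as an aminopeptidase, had 1327 reads in control cells against 627 in RV-Cre cells, or 96.2 and 51.0 CPM. Its ratio of 0.533 (95% interval 0.484 to 0.587) was lower beyond counting error, just short of the 2-fold threshold, with a log2 ratio of -0.91. *Alox5ap*, which encodes FLAP and presents arachidonic acid to 5-lipoxygenase, had 15 and 7 reads, or 1.09 and 0.569 CPM. It did not reach the expression minimum, and its ratio of 0.527 has an interval from 0.182 to 1.37. *Lta4h* and *Alox5ap* stood at similar proportions, 88.5 and 89.6 *Lta4h* reads per *Alox5ap* read, with an interval of the fold from 0.386 to 2.95. *Alox5* itself, the 5-lipoxygenase, had 0 reads in both libraries, where 3 reads would be 0.217 CPM in control cells and 0.244 CPM in RV-Cre cells. *Ltc4s*, leukotriene C4 synthase, had 0 and 6 reads and did not reach the minimum.

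*Ptges3* encodes p23, a cochaperone of Hsp90 that was also described as a cytosolic prostaglandin E synthase. It had 7116 reads in control cells against 4503 in RV-Cre cells, with a log2 ratio of -0.49 and a ratio of 0.714 (95% interval 0.688 to 0.741). With its depth it is the most precisely counted of the 9 genes, and it was lower beyond counting error though not 2-fold. Its decrease was smaller than that of *Lta4h*, with 5.36 *Ptges3* reads per *Lta4h* read in control cells and 7.18 in RV-Cre cells (fold 1.34, 95% interval 1.21 to 1.49). Of the 9 pairs compared within the prostanoid receptors, the leukotriene receptors and the enzymes, 5 had an interval that excluded 1, without adjustment for the number of pairs.

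*Alox5ap* (GRCm38 chr5:149264767-149288153), *Lta4h* (chr10:93453411-93484875), *Ptges3* (chr10:128058954-128077272) and *Ptgir* (chr7:16906490-16910905) all lie on the plus strand. *Alox5ap* shares exonic bases with *Gm19719*, an antisense transcript. *Ptges3* has a processed copy, and 4.52% of the 50-base windows in the last 300 bases of its transcripts occur also in *Gm11893* or *Ptges3-ps*, so a small part of its reads may be shared. For the other 8 genes this share was 0.

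**Figure D4:**
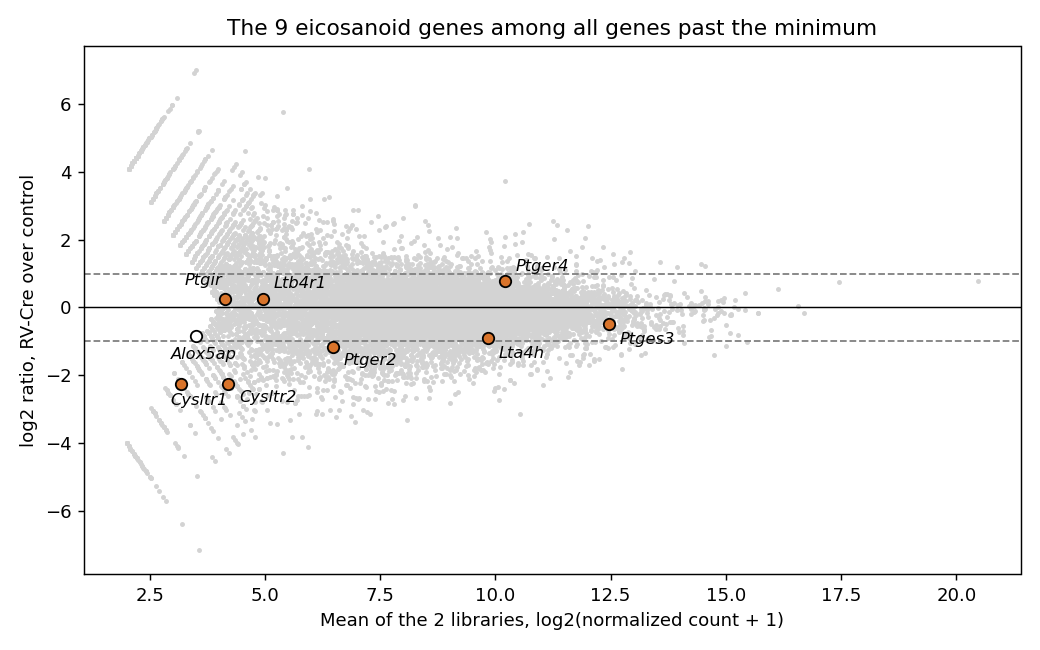
The log2 ratio of the RV-Cre library over the control library against the mean log2 value, for genes past the expression minimum (grey) and the 9 eicosanoid genes (orange; *Alox5ap*, below the minimum, in white), with dashed lines at 2-fold. *Cysltr1* and *Cysltr2* lie at the sparse left end, where grey points spread widest, and *Ptger4*, *Lta4h* and *Ptges3* lie where the spread is narrow.

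Around these genes, the lists of the synthesis pathway held genes in both directions. The lists leave out the 9 genes themselves. *Lta4h*, *Alox5ap* and *Ptges3*, with log2 ratios of -0.91, -0.84 and -0.49, therefore do not enter the medians of the enzyme lists. Their counts stand beside the 14.2% higher and 12.3% lower over all genes past the minimum, and lists differ in how many of their genes have few reads, where calls are more common. Among the genes called here and below, *Pla2g4f*, *Ggt5* and *Ptgr1* passed the minimum only through the RV-Cre library. *Mgst3*, *Cyp1b1*, *Grk5* and *Ccl20* passed only through the control library. The calls of all these genes carry that selection. Of 13 genes of arachidonate release past the minimum, 1 was at least 2-fold higher, *Pla2g4f* with 5 and 32 reads, and 1 lower, the monoglyceride lipase *Mgll* with 368 and 95 reads (ratio 0.291, 95% interval 0.230 to 0.366). The median log2 ratio of that list was -0.47, against -0.01 over all genes past the minimum. Its most abundant gene was *Lpcat3*, which puts arachidonate back into phospholipids, with 3591 and 2090 reads (ratio 0.657, 95% interval 0.622 to 0.693). *Mgll* and *Lpcat3* share exonic bases with another gene on the opposite strand, as do *Rgs16*, *Ltc4s* and *Ptgs1*. *Ephx1* shares some with a gene on its own strand, and *Hsp90b1* with genes on both strands, so that the reads of all these genes are uncertain.

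The list of leukotriene enzymes and their partners had 8 genes past the minimum, of which 3 were higher and 1 lower, with a median log2 ratio of 0.84. *Ggt5* and *Ggt1* encode γ-glutamyl transferases that trim leukotriene C4 to leukotriene D4. *Ggt5* had 13 reads in control cells against 141 in RV-Cre cells (ratio 12.2, 95% interval 6.93 to 23.6). *Ggt1* had 19 and 66 reads (ratio 3.92, 95% interval 2.32 to 6.92). *Cotl1*, an actin-binding protein that also binds 5-lipoxygenase, had 6077 and 11337 reads (ratio 2.11, 95% interval 2.04 to 2.17). The gene called lower was *Mgst3*, a microsomal glutathione transferase, with 18 and 2 reads.

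Of the 6 genes past the minimum among the cyclooxygenase and prostanoid enzymes, 1 was higher and 0 lower, with a median log2 ratio of 0.50. The higher gene was *Hpgds*, the hematopoietic prostaglandin D synthase, with 41 and 85 reads (ratio 2.34, 95% interval 1.59 to 3.48). The cyclooxygenases were nearly absent, *Ptgs1* with 0 and 7 reads and *Ptgs2* with 8 and 6, both below the minimum. The most abundant gene, the aldo-keto reductase *Akr1b3*, had 889 and 728 reads (ratio 0.924, 95% interval 0.837 to 1.02). Among 5 genes of prostaglandin transport and inactivation, with a median of 0.05 that turned to -0.27 with a log2 minimum of 6, the organic anion transporter *Slco3a1* was lower with 1935 and 739 reads (ratio 0.431, 95% interval 0.395 to 0.469) and the reductase *Ptgr1* higher with 12 and 26 reads. *Hpgd*, which oxidizes prostaglandins to inactive products, had 0 reads in both libraries. Of 3 genes among the other lipoxygenases and epoxide enzymes, *Ephx1* was higher with 36 and 108 reads, *Cyp1b1* lower with 30 and 9 reads, and the most abundant, the lipid peroxidase *Gpx4*, had 613 and 898 reads. The median of these 3 was 0.72, and it turned to -0.70 with no expression minimum.

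None of the 5 other eicosanoid and lipid mediator receptors past the minimum was 2-fold higher or lower, with a median of -0.18 that became 0.23 with *Gapdh* scaling, and 6 receptors of that list had 0 reads in both libraries. *Ptger1*, given above, had most reads of them in the control library.

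Downstream of the receptors, the next list held genes for G proteins, their RGS regulators, arrestins and receptor kinases. Of its 21 genes past the minimum, 1 was higher and 4 were lower, *Rgs1* and *Rgs16* among them. Its median was -0.26 and became 0.15 when counts were scaled to *Gapdh*, a scaling that moved the median of all genes to 0.43. *Rgs1* and *Rgs16* encode proteins that shut off G protein signals. *Rgs1* had 3659 reads in control cells against 831 in RV-Cre cells (ratio 0.256, 95% interval 0.237 to 0.276). *Rgs16* had 1297 and 313 reads (ratio 0.272, 95% interval 0.240 to 0.308). The receptor kinase gene *Grk4* was the higher one, with 21 and 72 reads, and *Gnai2*, the inhibitory G protein subunit with most reads, had 8688 and 11088 reads (ratio 1.44, 95% interval 1.40 to 1.48). Of 23 cyclic AMP signalling genes, 0 were higher and 0 lower, with a range from -0.88 to 0.88 and a median of 0.19 that was -0.02 with no minimum. Over all genes, 28.4% were called in either direction at a mean log2 value of 5 to 8 and 11.3% at 8 or more, and whether the list differs from that background was not tested. Of 9 target genes of CREB, the factor that cyclic AMP activates, 0 were higher and 0 lower either, with a median of 0.27. Most reads fell on *Prkar1a*, a regulatory subunit of protein kinase A, with 5662 and 4642 reads, and, among the CREB targets, on the nuclear receptor genes *Nr4a3* with 900 and 1107 reads and *Nr4a1* with 1045 and 673. Their ratios were 1.39 (95% interval 1.27 to 1.52) and 0.727 (95% interval 0.659 to 0.801), in opposite directions.

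*Ptges3* works with the Hsp90 machinery. Of 16 genes, 2 were lower and 0 higher, with a median of -0.18 that became 0.24 with *Gapdh* scaling. The 2 were *Hsp90b1*, the Hsp90 of the endoplasmic reticulum, with 8324 and 2457 reads (ratio 0.333, 95% interval 0.318 to 0.348), and the immunophilin *Fkbp5* with 826 and 274 reads (ratio 0.374, 95% interval 0.325 to 0.430). *Hsp90ab1*, the most abundant, had 119223 and 93387 reads, a ratio of 0.884. The Th17 genes, fixed as a reference list of which the study had named some from these libraries, had a median of -0.98, and the most extreme was *Ccl20* with 88 and 4 reads.

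**Figure D5:**
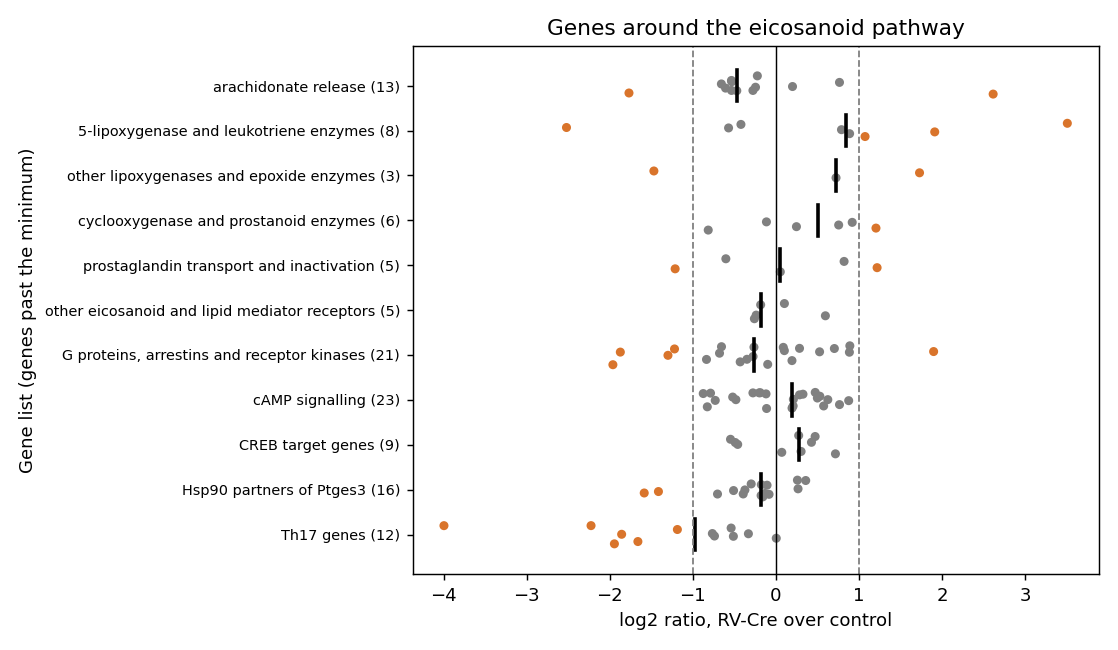
Log2 ratio of the RV-Cre library over the control library for each gene past the expression minimum in 11 fixed lists (number of genes in brackets); orange marks a difference of at least 2-fold, the black bar the list median and dashed lines 2-fold. The cyclic AMP and CREB target lists hold no gene beyond 2-fold, and the medians run from -0.98 for Th17 genes to 0.84 for leukotriene enzymes. The 9 eicosanoid genes are in none of the lists, and the G protein list also holds RGS genes.

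Eicosanoid genes are also active in other blood cells, and markers of such cells differed between the libraries. Of 14 myeloid markers in the table, 13 and 14 had reads, and their summed level was 29.0 CPM in control cells and 74.2 CPM in RV-Cre cells, with 10 higher and 4 lower in CPM. *Marco*, singled out after its values were seen, had 5 and 289 reads, or 0.362 and 23.5 CPM of these sums. It passed the minimum only through the RV-Cre library. The 4 lower markers were *Itgax* with 27 and 1 reads, *Lyz2* with 22 and 7, *Tyrobp* with 33 and 25 and *Itgam* with 7 and 3. *Itgax* and *Lyz2* passed only through the control library, and *Itgam* passed in neither. Of 9 B cell markers, 8 had reads in each library and the sum was 24.2 and 61.2 CPM, of which *Cd74* held 17.7 and 47.4 CPM, with *Pax5* at 0 in both. Of 13 mast cell, basophil and eosinophil markers, 6 and 8 had reads and the sum was 10.2 and 15.3 CPM, with *Fcer1a*, *Epx* and *Cpa3* at 0 in both. The sums were 7.54 and 15.4 CPM for 6 platelet markers, with reads on 5 and 4 of them and *Gp6* at 0 in both, and 87.5 and 128 CPM for 8 CD8 and NK cell markers, with reads on 7 in each library. In that last list 6 markers were higher and 2 lower in CPM in the RV-Cre library. *Cd8a*, *Cd8b1* and *Nkg7* had most reads and were higher. *Ncr1* with 0 and 8 reads, *Prf1* with 6 and 14 and *Eomes* with 14 and 23 were also higher. The 2 lower were *Klrd1* with 240 and 57 reads (ratio 0.268, 95% interval 0.197 to 0.359) and *Klrb1c* with 12 and 0 reads. *Ncr1*, *Prf1* and *Klrb1c* did not reach the minimum. *Klrb1c* shares exonic bases with a gene on its own strand and *Eomes* with one on the opposite strand, so their reads are uncertain. The markers named from the myeloid, the B cell and the CD8 and NK cell lists were picked after their values were seen. The summed levels of these marker lists, like that of the T cell markers, were higher in the RV-Cre library. The part of such cells in the values of the 9 genes and of the other eicosanoid genes, higher or lower, was not tested.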

How the data were processed

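RNA was measured in 2 libraries, 1 per condition, prepared by the authors with the Lexogen QuantSeq kit from 500 ng of total RNA of sorted GFP+ cells. The authors deposited raw counts of reads per gene symbol, without normalization. The submitters' processing notes name bcl2fastq 2.20.0.422, Bowtie2, bedtools and build mm10, with no role for each. The gene annotation, read filters and strand setting are not given in the sources used here. Of the 23282 rows, 79 share a symbol with another row. They were kept in the counts over all genes and left out of gene lists, and none is among the 9 genes.

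Counts were scaled with TMM factors over the whole table (edgeR 4.0.16, R 4.3.3), giving size factors of 1.06 (control) and 0.941 (RV-Cre), and compared as log2(normalized count + 1). Intervals on ratios and shares are exact 95% intervals (scipy 1.17.1). Only counting error enters the intervals and the bound of 3 reads used where a gene had 0. Reads carry no molecular identifiers, so amplified copies cannot be told from separate molecules, and the intervals may be too narrow even for counting error. Positions and overlaps come from GENCODE M21 (GRCm38, the same assembly as mm10), and promoters from RefSeq (GRCm38.p6), in which 7 of the 9 genes were found. The procedure was tested on simulated counts with known changes, which held counting error only and no variation between replicate libraries. The changes were placed only on genes with more expected reads than *Cysltr1*, *Cysltr2*, *Ltb4r1*, *Ptgir* and *Alox5ap* have. The test therefore does not cover calls at such low counts.

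The 9 genes and all gene lists were chosen with earlier results of these data known. The genes named are all 9, *Ptk2*, the most extreme genes of each list beyond 2-fold (at most 2 in each direction), the gene of each pathway list with most reads over both libraries, and a few fixed pathway genes. *Nr4a1* and the markers named from the lists of cell types were named after their values were seen. No gene was ranked by likeness to another, since 2 libraries give each gene 1 ratio. Alternatives were other scalings, pseudocounts, expression minimums and fold thresholds.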

Additional observations from a re-analysis of the deposited data

How the results depend on the processing

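No paired analysis was possible because control and RV-Cre cells gave 1 library each, and for the same reason no library could be left out. The directions of the called genes (*Cysltr1*, *Cysltr2*, *Ptger2* and *Ptk2*) held under every scaling and pseudocount run. Of 80 alternative values for the 9 genes and *Ptk2*, 75 stayed inside the main counting interval. That interval is wide for genes of few reads, so this count follows read depth. *Cysltr1* stayed inside although it went from -2.24 to -1.13, and the 5 values outside were of *Ptges3*, *Lta4h* and *Ptger4*. Scaling to *Gapdh*, which itself had a log2 ratio of -0.42 and shifts the median of all genes to 0.43, put *Lta4h* at -0.49, *Ptger4* at 1.19 and *Ptges3* at -0.068, and it took *Ptger2* below 2-fold at -0.76. *Gapdh* had 956 control and 634 RV-Cre reads and shares exonic bases with *Iffo1* on the opposite strand, so its own reads are uncertain. A pseudocount of 10 put *Cysltr1* at -1.13 and *Cysltr2* at -1.51. *Ptges3* was at -0.40 with library totals without *Rn45s* and -0.38 with quantile normalization. *Ltb4r1* and *Ptgir*, whose intervals include no difference, turned to -0.05 and -0.33 with quantile normalization. The number of genes called lower was 3. It was 4 with quantile normalization or a fold threshold of 1.5, and 2 with *Gapdh* scaling or a fold threshold of 3. A log2 minimum of 6 gave 1, as did a minimum of 4 in both libraries, the latter chosen after the data were seen. The number called higher was 0, and 1 (*Ptger4*) with *Gapdh* scaling or a fold threshold of 1.5. Over all genes, 1720 were higher and 1491 lower. These counts were 2960 and 780 with *Gapdh* scaling, 3265 and 2441 with no minimum, 2807 and 2081 with a minimum of 2, 734 and 1067 with one of 6, 758 and 1097 with 4 in both libraries, and 2847 and 2777 or 1008 and 669 with a fold threshold of 1.5 or 3. The share of higher among all called genes went from 53.6% to 79.1% with *Gapdh* scaling, and to 40.8% and 40.9% with the minimums of 6 and of 4 in both libraries.

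Of 132 alternative list medians, 111 stayed within the counting interval of the 1 or 2 genes nearest the median, which is likewise wider where those genes have few reads. With *Gapdh* scaling the medians were -0.055 for arachidonate release, 1.30 for leukotriene enzymes, 1.14 for other lipoxygenases, 0.47 for prostaglandin transport, 0.15 for G proteins, 0.62 for cyclic AMP signalling, 0.23 for other receptors, 0.24 for Hsp90 partners and -0.56 for Th17 genes. The G protein list was at -0.17 without *Rn45s*, -0.15 with quantile normalization and -0.18 with either stricter minimum, and the Hsp90 partners at -0.059 with quantile normalization. Other lipoxygenases were at -0.70 with none, -0.96 with 2, and 1.23 with 6 or with 4 in both libraries. Prostaglandin transport was at -0.27 with those same 2 stricter minimums, and cyclic AMP signalling at -0.016 with none or 2. Depth limits the genes of few reads: *Cysltr1*, *Cysltr2*, *Alox5ap*, *Ptgir* and *Ltb4r1* had under 50 reads in each library.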
